A study of Mus musculus with 18 samples.

Results

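Glutathione is the main small thiol of the cell, and it protects proteins and membrane lipids from peroxides. It is built from cysteine, glutamate and glycine, is used by the glutathione peroxidases, and is returned to its reduced form by a reductase that needs NADPH, which the pentose phosphate pathway supplies. In oocytes it is known for building up during growth and maturation and for its use after fertilization, when the sperm nucleus is opened. The 10 genes described here follow that route: Slc7a11 (cystine import), Gclc and Gclm (the catalytic and modifier subunits of glutamate-cysteine ligase, the rate-limiting step), Gss (the second step), Gsr (glutathione reductase), Gpx1 and Gpx4 (peroxidases that act on soluble peroxides and on membrane lipid peroxides), and G6pdx, Taldo1 and Tkt (glucose-6-phosphate dehydrogenase, transaldolase and transketolase of the pentose phosphate pathway). They were taken as a list of gene names, with no threshold on their values, and all 10 were found among the 53715 genes counted and the 28252 genes with a TPM (transcripts per gene length, scaled to a library total of 1000000).

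RNA was sequenced from oocytes of C57Bl/6j x CBA/J mice in 18 libraries, 3 from each of 6 groups: oocytes of primordial follicles (the resting reserve), oocytes of primary follicles (the first growing stage) and MII oocytes (mature eggs arrested in the second meiotic division), each from a sham and an NTY arm. The labels give no meaning for NTY, no age and no genotype beyond the strain. The 12 libraries of primordial and primary follicles came from laser-captured cells whose RNA was pooled by stage, amplified and enriched for exons, and the 6 MII libraries came from collected oocytes by Smart-seq II, so the MII stage and its library method cannot be told apart. No label says that replicates came from separate animals, so the p-values measure only the spread between these libraries, and the codes 2E and 2E2 of primary NTY replicates 2 and 3 leave it unstated whether those were separate material. In bulk samples fewer cells of a type and less RNA per cell cannot be told apart.

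The microdissected libraries held 15149564 to 29205503 counts and the MII libraries 8652089 to 9978830, so that 3 counts, taken as the floor of detection, equal 0.103 to 0.198 and 0.301 to 0.347 CPM (counts scaled to a library total of 1000000). Summed CPM of 16 oocyte markers ran from 8188 to 12020 in MII, with 14 or 15 of 16 markers over 3 counts, and from 3.07 to 1546 in the microdissected libraries. Granulosa markers (14 genes, 4 of them at 0 in every MII library) summed to 760 to 5099 CPM in the microdissected and 96.1 to 182 in the MII libraries. Stroma and theca markers (9 genes, 4 at 0 in every MII library) summed to 1376 to 17911 and 0.58 to 7.42 CPM. Blood and vessel markers (10 genes, 7 of them at 0 in every MII library, and 1 to 3 over 3 counts in any library) summed to 0.266 to 60.3 CPM in the microdissected and 89.8 to 141 CPM in the MII libraries. The MII sum thus rests on the remaining genes, Hba-a1, Cd68 and Pecam1, and not on the list as a whole. Primordial NTY replicate 3 stood apart, with 5 of 16 oocyte markers over 3 counts and the lowest oocyte sum, and the log2 fold changes that use it are given again without it. The part of these other cells in the levels below was not tested.

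Both peroxidases carry selenocysteine, an amino acid inserted at a TGA codon that otherwise stops translation. Their stretches around that codon, read from GENCODE M21 coding sequence on GRCm38 (plus strand), are shown because they mark the active site that defines these enzymes, with TGA in capitals. Gpx1 is at chr9:108339430-108339474, in exon 1 (codon 47 of 201 in Gpx1-201), and Gpx4 at chr10:80054716-80054760, in exon 3 (codon 73 of 197 in Gpx4-202).
Gpx1: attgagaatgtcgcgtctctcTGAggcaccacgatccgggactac
Gpx4: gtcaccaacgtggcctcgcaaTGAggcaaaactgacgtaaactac
The stretches shared 25 of 45 bases and 3 of 15 codons.

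Upstream sequence in RefSeq (GRCm38.p6) was matched for 8 of the 10 genes. Gclc and Gsr had no entry there and were not searched. The core of the antioxidant response element, the site of the NRF2 factor that is known to drive many glutathione genes, was searched as TGACNNNGC on both strands of the 250 bases before each start. It was found before Gclm (134 to 126 bases upstream, in the stretch chr3:122245413-122245441) and before G6pdx (57 to 49 bases upstream, in the stretch chrX:74428919-74428947, minus strand), each on the strand opposite to the gene. The match is in capitals, and 10.2% of 32851 such windows held one, so these matches are a description of the windows and not of binding. The starts are those of RefSeq. The GENCODE gene of G6pdx reaches chrX:74429194, so the G6pdx window lies inside that gene. The windows of Tkt, of Gpx1 in part and of Gpx4 except for its first start also lie inside their GENCODE genes. For those windows the lack of a match does not describe the sequence before the GENCODE gene.
Gclm: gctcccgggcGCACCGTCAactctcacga
G6pdx: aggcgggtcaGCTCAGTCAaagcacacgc

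In MII oocytes the levels of the 10 genes, in TPM, fell into an upper and a lower set. Taldo1 led with a median of 227 TPM over the 6 libraries, followed by G6pdx at 123, Gpx1 at 60.2 and Slc7a11 at 25.9. Then came Gclm at 6.19, Gclc at 4.98, Gpx4 at 1.82, Tkt at 0.70, Gsr at 0.052 and Gss at 0. The ranges of neighbours in this order overlapped except between Slc7a11 (13.5 to 45.2 TPM) and Gclm (1.83 to 11.4 TPM), so the ranges part the 4 upper genes from the 6 lower ones and resolve no other step. Within libraries G6pdx was above Gpx1 and Slc7a11 above Gclm in 6 of 6, Taldo1 above G6pdx, Gpx1 above Slc7a11, Gclm above Gclc and Gpx4 above Tkt in 5 of 6, and Gclc above Gpx4 and Tkt above Gsr in 4 of 6.

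**Figure D1:**
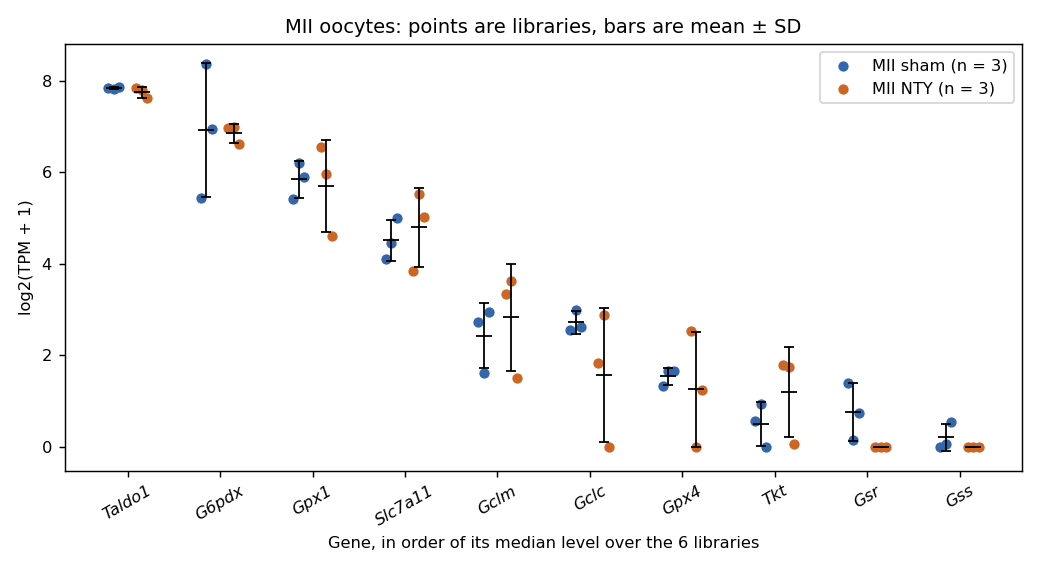
Level of each gene in MII oocytes as log2(TPM + 1), in order of the median over the 6 libraries; points are libraries (3 sham, 3 NTY) and bars are mean ± SD. Taldo1 is the highest by median and varies little (196 to 233 TPM), the points of G6pdx spread from 42.7 to 329 TPM, and Gsr is at 0 in all 3 NTY libraries.

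Taldo1, the transaldolase that moves carbon between the sugars of the non-oxidative branch, was the most even of the 10. It measured 228, 227 and 233 TPM in the sham and 229, 221 and 196 TPM in the NTY libraries, or 229 ± 3.17 and 215 ± 17.3 (SD, n = 3 each). The arms overlapped, with the lowest value in NTY replicate 3. Its SD within groups on the log2(CPM + 1) scale was 0.144, beside a 10th percentile of 0.265 and a median of 0.548 over the 7075 genes with a mean of at least 10 CPM in MII. Tkt, another enzyme of that branch, measured 0.48, 0.93 and 0 TPM in sham and 2.47, 2.35 and 0.040 TPM in NTY, which are 0 to 62 counts a library. G6pdx, the first and NADPH-making step, measured 42.7, 329 and 123 TPM in sham and 124, 125 and 97.3 TPM in NTY, so sham replicates 1 and 2 lay on either side of all 3 NTY libraries. G6pdx overlaps Ikbkg on the other strand, and the use of strand in counting is not given in the sources used here.

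Among the genes of synthesis in MII, Slc7a11 measured 16.1, 20.99 and 30.8 TPM in sham and 13.5, 45.2 and 31.4 TPM in NTY. The NTY libraries held both the lowest and the highest value. Gclm, the modifier subunit, measured 5.61, 2.08 and 6.78 TPM in sham and 9.21, 11.4 and 1.83 TPM in NTY. Gclc, the catalytic subunit, measured 4.84, 7.01 and 5.13 TPM in sham and 2.56, 6.42 and 0 TPM in NTY. Both arms overlapped for each subunit, and NTY replicate 3 was the lowest library for both. Gclm overlaps Gm17494 on the other strand and Gm6061, a transcribed processed pseudogene on its own strand, and Gclc overlaps no annotated gene. Gss held 0, 1 and 9 counts in sham and 0 in each NTY library, so its transcript was at or near the floor. Gsr held 19, 1 and 6 counts in sham and 0 in each NTY library, which allows up to 0.347 CPM in the shallowest of them. The arms did not overlap for Gsr, as for 8.31% of the genes tested in MII (733 with NTY below sham and 281 above). Gsr and Gss were below the filter of the test, so they were not tested there and are not among those genes. Every MII NTY library also held fewer genes with a count (13608, 12926 and 12782) than every MII sham library (15442, 18239 and 16142). The part of this in the 0 counts of Gsr and Gss was not tested.

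Of the peroxidases in MII, Gpx1 measured 41.7, 73.1 and 58.9 TPM in sham and 93.4, 61.5 and 23.3 TPM in NTY. Gpx4 measured 1.51, 2.14 and 2.13 TPM in sham and 4.75, 0 and 1.37 TPM in NTY, which are 0 to 28 counts a library. Gpx1 was thus the higher of the pair in every MII library, while both NTY and sham values of each gene overlapped. By a search on names alone, no pseudogene named for Gpx1 is in the annotation, and Gpx4 has a named one, Gpx4-ps2. Pseudogenes under other names were not searched for, so a pseudogene of Gpx1 could have been missed. How reads matching several places were counted is not given in the sources used here.

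The NTY comparison in MII asked whether these levels differed between the arms. By edgeR's quasi-likelihood test, adjusted after Benjamini and Hochberg over 12209 genes, 0 genes were called (0.0% of all tested; 280 genes at an unadjusted p under 0.05) and 0 of the 8 members that were tested, of which 0 had an unadjusted p under 0.05. DESeq2, which gave all 8 a p-value, called 29 genes with 0 members among them. Every one of the 8 had an adjusted p of 1.0. The log2 fold change (NTY over sham) was -0.09 ± 0.28 (SE) for Taldo1 with a 95% interval of -0.71 to 0.54, 0.06 ± 0.50 for Gpx1 (-1.07 to 1.20), 0.44 ± 0.43 for Slc7a11 (-0.53 to 1.40) and -0.36 ± 0.52 for G6pdx (-1.54 to 0.83). For the scarcer genes it was 0.53 ± 0.76 for Gclm, -0.99 ± 1.34 for Gclc, 0.16 ± 1.58 for Gpx4 and 1.73 ± 1.75 for Tkt, and these 4 intervals each spanned changes of more than 2-fold both ways. The median over the 8 was 0.11, beside 0.0038 over all genes tested. The signs of Taldo1, Gpx1, Gpx4 and G6pdx turned when 1 library was left out (MII sham replicate 1, NTY replicate 1, NTY replicate 1 and sham replicate 2).

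Ratios of paired products within a MII library were taken from TPM with 0.1 added, and an exact two-sided permutation test of 3 against 3 cannot go below p = 0.1. The log2 ratio of Gclm to Gclc was 0.21, -1.71 and 0.39 in sham and 1.81, 0.82 and 4.27 in NTY. All 3 NTY libraries were above all 3 sham libraries, a difference of 2.67 (exact permutation p = 0.1, the lowest this test can give). The share of other gene pairs whose ratios part in this way was not computed. The value of 4.27 comes from a library in which Gclc was at 0 counts and Gclm at 39. Without that library, NTY replicate 3, the difference was 1.68, and with 1 TPM added in place of 0.1 it was 1.54. The log2 ratio of Gpx4 to Gpx1 was -4.82 ± 0.18 in sham and -5.84 ± 2.97 in NTY (SD, n = 3, exact p = 1.0), and without NTY replicate 2, which held no Gpx4 count, the difference turned from -1.03 to 0.69. The log2 ratio of Taldo1 to Tkt was 9.19 ± 1.77 and 7.81 ± 2.29 (n = 3, exact p = 0.5). The p-values of the 3 ratios are unadjusted, and with an adjustment over 3 none could pass 0.05.

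In the microdissected follicles the levels moved mainly between replicates of a group. Of the 120 values (10 genes in 12 libraries) 20, or 16.7%, were at 3 counts or fewer, beside 24.9% over all 7588 genes that reached 1000 counts in any of these libraries. The sets are not quite alike, as Gss reached no more than 377 counts. Of the 30 pairs of a gene and a group in which a member reached 1000 counts, 12 held another replicate at 3 counts or fewer, beside 33.8% of such pairs over all genes, and in MII this held for 0 of 6 member pairs and 0.0217% of all pairs. By group it was 3 of 8 members for primordial sham and 1 of 8 for primary sham, beside 41.2% and 14.3% of all genes. For the NTY arm it was 4 of 5 members in primordial and 4 of 9 in primary follicles, beside 40.8% and 40.5%. Their SD within groups on the log2(CPM + 1) scale was 1.78 to 3.39, beside a median of 2.55 over 6834 genes with a mean of at least 10 CPM. In MII 13 of the 60 member values, or 21.7%, were at 3 counts or fewer, all from the lower set of genes there. The share was 0.00657% over genes that reached 1000 counts in MII, which the lower set did not.

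**Figure D2:**
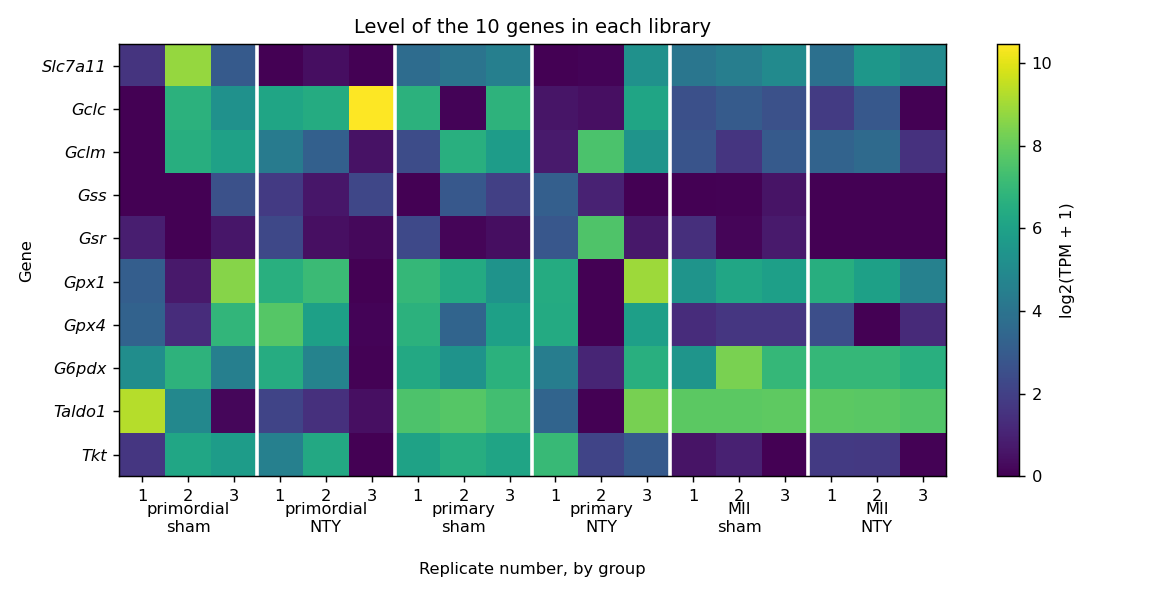
Level of the 10 genes as log2(TPM + 1) (colour) in each of the 18 libraries, with replicates 1 to 3 side by side within each group. Dark and bright cells alternate within the microdissected groups, Gclc in primordial NTY replicate 3 is the brightest cell at 1413 TPM, and the MII columns resemble each other.

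Slc7a11 had the highest count of any member in any library. It measured 1.96, 449 and 6.74 TPM in primordial sham and 0, 0.31 and 0.0091 TPM in primordial NTY, where the counts were 129, 53183 and 604 against 0, 31 and 1. All 3 NTY libraries were below all 3 sham libraries, at 8.52 to 1821 CPM in sham and 0 to 1.32 CPM in NTY. In primary follicles it measured 12.1, 15.5 and 21.7 TPM in sham and 0, 0.060 and 38.1 TPM in NTY, so NTY replicates 1 and 2 lay below and replicate 3 above all sham libraries. The primary sham values were close to each other, at 16.5 ± 4.88 TPM (SD, n = 3). The gene spans 5 other annotated ones, 3 of them processed pseudogenes.

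The ligase subunits were both high in some libraries and parted in others. Gclc measured 0, 104 and 38.4 TPM in primordial sham, 70.3, 85.6 and 1413 TPM in primordial NTY, 104, 0.070 and 107 TPM in primary sham and 0.50, 0.33 and 70.0 TPM in primary NTY. Its highest value, 41975 counts, came from primordial NTY replicate 3, the library with the least oocyte marker signal, where it made up 99.7% of the summed TPM of the 10 genes. Gclm measured 0, 94.6 and 62.3 TPM in primordial sham, 19.3, 8.36 and 0.42 TPM in primordial NTY, 4.35, 95.8 and 54.2 TPM in primary sham and 0.70, 182 and 41.1 TPM in primary NTY. Both were at 0 in primordial sham replicate 1 and both were at their highest of the group in primordial sham replicate 2. Those libraries differed as a whole, with 15149564 counts and 6147 genes with a count in replicate 1 and 29205503 and 9229 in replicate 2. In primary sham replicate 2 Gclm stood at 95.8 TPM with Gclc at 0.070, and in primordial NTY replicate 3 the reverse held.

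Gss and Gsr were scarce in follicles too. Gss did not exceed 8.02 TPM in any microdissected library and held 0 counts in 4 of the 12, and it overlaps Acss2 and the antisense genes Gssos1 and Gssos2. Gsr was at or below 6.08 TPM in 11 of the 12 and at 192 TPM in primary NTY replicate 2, where it was the highest of the 10 genes. That library held 3782 counts of Gsr against 133 and 13 in the other primary NTY libraries, so a single library carried the NTY level.

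The peroxidases were high and low in largely the same follicle libraries. Gpx1 measured 7.80, 0.65 and 379 TPM in primordial sham, 96.7, 139 and 0 TPM in primordial NTY, 123, 83.2 and 40.4 TPM in primary sham and 85.5, 0 and 495 TPM in primary NTY. Gpx4 measured 8.85, 1.498 and 117 TPM in primordial sham, 208, 60.0 and 0.074 TPM in primordial NTY, 106, 9.44 and 60.7 TPM in primary sham and 84.2, 0 and 58.5 TPM in primary NTY. Primordial NTY replicate 3 and primary NTY replicate 2 were at or near 0 for both. Over the 12 libraries, which share their depth range and amplification, the Spearman rho of CPM between them was 0.725, the highest of any pair of members there.

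In the pentose phosphate group, Taldo1 measured 636, 28.7 and 0.14 TPM in primordial sham, 3.37, 1.75 and 0.35 TPM in primordial NTY, 186, 208 and 157 TPM in primary sham and 9.39, 0 and 318 TPM in primary NTY. It made up 92.0% of the summed TPM of the 10 genes in primordial sham replicate 1, the library with the fewest genes with a count. The 3 primary sham libraries were close to each other (183 ± 25.7 TPM), and the arms overlapped at both stages. Tkt measured 2.13, 72.5 and 53.7 TPM in primordial sham, 22.4, 78.2 and 0 TPM in primordial NTY, 64.7, 90.5 and 68.2 TPM in primary sham and 133, 3.48 and 6.84 TPM in primary NTY. G6pdx measured 34.0, 108 and 21.9 TPM in primordial sham, 88.1, 24.8 and 0.041 TPM in primordial NTY, 78.8, 40.1 and 103 TPM in primary sham and 20.6, 1.14 and 94.8 TPM in primary NTY. In primordial NTY replicate 3 these 3 genes held 0 to 6 counts.

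By median over the 12 libraries the order was Gpx1 (84.4 TPM), Gclc (70.1), Gpx4 (59.2), Tkt (59.2), G6pdx (37.1), Gclm (30.2), Taldo1 (19.03), Slc7a11 (4.35), Gss (1.73) and Gsr (0.58). All neighbours in this order overlapped in range, and in no neighbouring pair was the upper gene higher in more than 9 of 12 libraries, so the order of the microdissected levels is not resolved. Tkt and Gpx4, at 59.2 TPM each here, were among the scarce genes of MII, and the different library methods apply to that contrast.

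The first follicle comparison asked how NTY differed from sham in primordial follicles. Of 10522 genes tested by edgeR, 1 was called (0.0095%), and 0 of the 10 members were. Slc7a11 had the largest change of the members, with a log2 fold change of -10.70 ± 3.36 (95% interval -17.47 to -3.93, edgeR adjusted p = 0.405). Without primordial NTY replicate 3 it was -10.25 (adjusted p = 0.506), and without primordial sham replicate 2, which held 53183 of its counts, it was -5.58. Taldo1 followed at -6.95 ± 3.30 (adjusted p = 0.438 by edgeR), at -6.70 (adjusted p = 0.558) without primordial NTY replicate 3, and at -3.04 (adjusted p = 0.769) without primordial sham replicate 1, which held 6519 of its counts. Gclc was at 4.02 ± 2.35 (edgeR adjusted p = 0.548) and at 0.51 without primordial NTY replicate 3. The other 7 were Gclm at -2.60, Gpx1 at -0.90, G6pdx at -0.64, Tkt at -0.59, Gss at 0.76, Gpx4 at 0.96 and Gsr at 1.60, with adjusted p of at least 0.792. Without primordial NTY replicate 3 these were -2.06, -0.36, -0.10, -0.048, -0.25, 1.52 and 1.98 in the same order, so Gss changed sign. Slc7a11 and Taldo1 were the 2 of 10 members with an unadjusted p under 0.05, beside 10.9% of all genes, and 1 of 10 beside 9.75% without that library. The median over the 10 was -0.62 beside 0.12 over all genes, and -0.18 beside 0.0098 without it. Among genes tested, 7.96% had arms that did not overlap, and 1 of the 10 members, Slc7a11, did, also without that library (20.6% of all genes).

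DESeq2 called more genes than edgeR in these comparisons, and its answer for the members turned on its Cook filter, which withholds a p-value from a gene when 1 library stands far from the fit. With that filter it called 760 genes in primordial follicles. In each of the 5 follicle comparisons it gave no p-value for 4 of the 10 members (Slc7a11, Gclc, Gsr and Taldo1), so it did not test them. With the filter off, a setting chosen after seeing the data, it called 1213 genes in primordial follicles, among them Slc7a11 (-10.71, DESeq2 adjusted p = 0.000326) and Taldo1 (-7.61, DESeq2 adjusted p = 0.0110). It also called Gsr in primary follicles (7.15, adjusted p = 0.0157, among 698 genes) and Slc7a11 for the mean NTY effect (-5.29, adjusted p = 0.0255, among 1083) and for the difference of that effect (10.83, adjusted p = 0.0199, among 1216). The stage step (1027 genes) and MII (29 genes) held no member. In each of these calls 1 library held most of the gene's counts in an arm: primordial sham replicate 2 for Slc7a11, primordial sham replicate 1 for Taldo1 and primary NTY replicate 2 for Gsr. The mean and difference calls of Slc7a11 also use primary NTY, where replicate 3 held 4252 counts against 0 and 6.

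In primary follicles 0 of 10522 genes were called (0.0%; 858 at an unadjusted p under 0.05 by edgeR, 479 called by DESeq2) and 0 members, of which 0 had an unadjusted p under 0.05 beside 8.15% of all genes. Gsr had the largest change at 6.39 ± 3.55 (edgeR adjusted p = 0.715), and it was 1.95 without primary NTY replicate 2, which held 3782 of its counts. The other 9 had adjusted p of 1.0: Gclc was at -1.06, G6pdx at -0.51, Taldo1 at -0.44, Tkt at -0.24, Slc7a11 at -0.051, Gss at 0.21, Gpx4 at 0.27, Gclm at 0.94 and Gpx1 at 1.60. Without primary NTY replicate 3, Gclc was at -6.69, Slc7a11 at -8.46 and Taldo1 at -4.87, with adjusted p of 0.533, 0.533 and 0.665 by edgeR. In the full fit the narrowest of their 95% intervals, that of Gclc, ran from -5.29 to 3.17. No member had arms that did not overlap, beside 15.1% of all genes. The median over the 10 was 0.078 beside -0.096 over all genes.

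**Figure D3:**
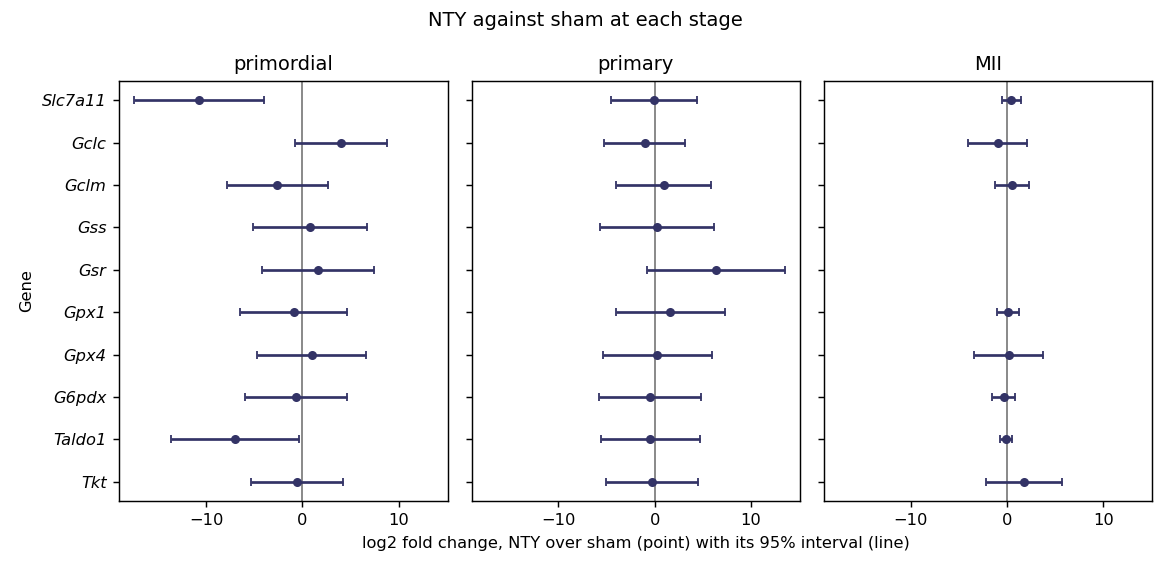
Log2 fold change of NTY over sham (points) with 95% intervals (lines) from edgeR, for each gene in primordial, primary and MII samples. Intervals in the follicles are many log2 units wide, those of Slc7a11 and Taldo1 in primordial follicles lie below 0 before adjustment, and Gss and Gsr have no point in MII because they were not tested.

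Across both follicle stages the mean NTY effect called 1 of 10522 genes (0.0095%) and 0 members by edgeR. It was -5.38 ± 1.90 for Slc7a11 (edgeR adjusted p = 0.288), -3.69 ± 2.00 for Taldo1 (adjusted p = 0.505) and 3.997 ± 2.24 for Gsr (adjusted p = 0.528). The other 7 were Gclm at -0.83, G6pdx at -0.57, Tkt at -0.42, Gpx1 at 0.35, Gss at 0.49, Gpx4 at 0.62 and Gclc at 1.48, with adjusted p of at least 0.83. Without primordial NTY replicate 3 the first 3 were -5.13, -3.56 and 4.27, and Gclc turned to -0.25, while the others were -0.49 for Gclm, -0.28 for G6pdx, -0.12 for Tkt, 0.64 for Gpx1, 0.0013 for Gss and 0.92 for Gpx4.

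The difference of the NTY effect, primary minus primordial, also called 1 gene (0.0095%) and 0 members by edgeR. For Slc7a11 this difference was 10.65 ± 3.79 (edgeR adjusted p = 0.219), and 10.24 (adjusted p = 0.244) without primordial NTY replicate 3. It came from -10.70 in primordial and -0.051 in primary follicles, where NTY replicate 3 held 4252 counts and the other NTY libraries 0 and 6, and without primary NTY replicate 3 it was 2.23 (adjusted p = 0.882). For Taldo1 it was 6.51 ± 3.92 and for Gclc -5.07 ± 3.11 (edgeR adjusted p = 0.554 and 0.567), and without primordial NTY replicate 3 these were 6.29 and -1.50. The other 7 were Gpx4 at -0.69, Gss at -0.56, G6pdx at 0.13, Tkt at 0.35, Gpx1 at 2.51, Gclm at 3.53 and Gsr at 4.79, with adjusted p of at least 0.762. Without primordial NTY replicate 3 they were -1.19, 0.51, -0.36, -0.15, 1.99, 3.13 and 4.59, so Gss, G6pdx and Tkt changed sign. Slc7a11 was the 1 of 10 members with an unadjusted p under 0.05 in both of these tests, beside 11.0% and 11.8% of all genes.

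The step from primordial to primary follicles, taken as the mean over sham and NTY, called 0 of 10522 genes by edgeR (0.0%; 1132 at an unadjusted p under 0.05, 582 called by DESeq2) and 0 members. The log2 fold change was above 0 for 8 of 10 members, beside 56.6% of all genes, with a median of 0.69 beside 0.29, and 0 members had an unadjusted p under 0.05. Gsr (3.54 ± 2.20, edgeR adjusted p = 0.614), Taldo1 (2.81 ± 1.92, 0.666) and Slc7a11 (1.88 ± 1.63, 0.783) had the largest positive values, followed by Gclm at 1.67, Tkt at 0.78, Gss at 0.59, Gpx1 at 0.34 and G6pdx at 0.20. Gpx4 was at -0.30, and Gclc, at -2.39 ± 1.55 (edgeR adjusted p = 0.638), was the lowest. Without primordial NTY replicate 3 the 10 were, in the same order, 3.26, 2.48, 1.61, 1.43, 0.47, 1.08, 0.020, -0.15, -0.64 and -0.70. Slc7a11 turned to -2.32 without primary NTY replicate 3.

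The wider pathway was described with 68 further genes in 7 lists, of which 65 had a TPM. In MII 28 of the 65 were over 3 counts in all 6 libraries and 15 in none, and in the microdissected libraries 4 were over 3 counts in all 12 and 11 in none. The highest in MII by mean were, list by list, Slc3a2 (the partner chain of Slc7a11, median 285 TPM), Ggct (which breaks down gamma-glutamyl peptides, 191), Gpx3 (a secreted peroxidase, 203), Glrx (glutaredoxin, 199), Mgst3 (a microsomal glutathione transferase, 571), Me1 (the cytosolic malic enzyme, another source of NADPH, 135) and Sephs2 (which makes the selenium donor for selenoproteins, 382). Their lowest MII values were 202, 123, 170, 90.8, 218, 96.3 and 316 TPM, so each was present in all 6 libraries. Slc3a2 was above Slc7a11 throughout, and Gpx3 was above both Gpx1 and Gpx4, at 170 to 240 TPM against 23.3 to 93.4 and 0 to 4.75.

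In the microdissected libraries the highest by mean were Slc3a2 (median 6.86 TPM), Chac1 (a glutathione-degrading cyclotransferase, 0.081), Gpx3 (1.79), Glrx3 (17.4), Gstm2 (a mu-class glutathione transferase, 3408), Idh1 (the NADPH-making cytosolic isocitrate dehydrogenase, 95.9) and Eefsec (the selenocysteine elongation factor, 22.1). Gstm2 was present in all 12, at 23.4 to 7922 TPM, and in MII it was over 3 counts in 1 of 6 libraries. Gstm1, picked out after its values were seen, was likewise at 14.96 to 3102 TPM in follicles and at 0 in all 6 MII libraries. Mu-class transferases are close paralogs, so how their shared reads were counted makes the split between them uncertain. Granulosa and stroma markers were also higher in the microdissected than in the MII libraries, as given above, and their part in this contrast was not tested.

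**Figure D4:**
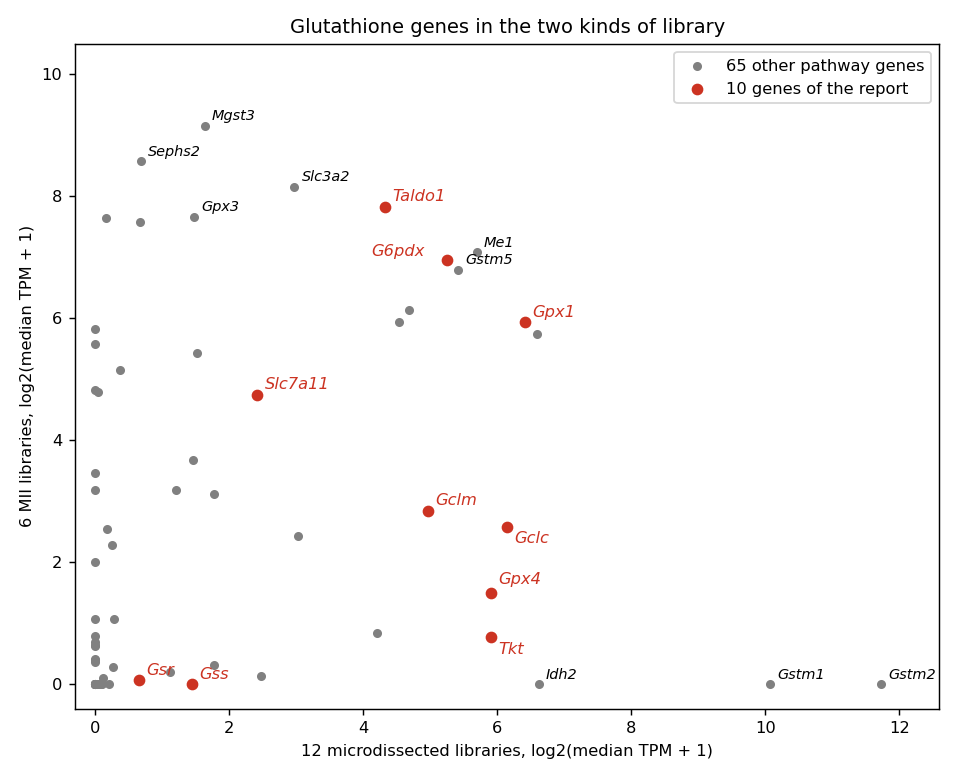
Median level of each gene as log2(median TPM + 1) in the 12 microdissected libraries (horizontal) and the 6 MII libraries (vertical), for the 10 genes (red) and 65 other pathway genes (grey). Taldo1 is the highest of the 10 on the MII axis (227 TPM) and at 19.03 TPM on the other, Tkt and Gpx4 lie low on the MII axis, and Gstm1 and Gstm2 lie far right at 0.

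No gene of these lists was called by edgeR in any of the 6 comparisons, with 37 tested in the microdissected and 32 in the MII fit. In the order cysteine supply, breakdown, other peroxidases, glutaredoxins, transferases, pentose phosphate and NADPH, and selenoprotein synthesis, 2, 5, 2, 3, 11, 9 and 5 genes were tested in the follicles and 3, 4, 2, 3, 8, 7 and 5 in MII. Unadjusted p under 0.05 was reached by 7 of 37 in primordial NTY against sham (beside 10.9% of all genes), 1 of 37 in primary follicles (8.15%), 6 of 37 for the mean NTY effect (11.0%), 5 of 37 for its difference (11.8%), 4 of 37 for the stage step (10.8%) and 2 of 32 in MII (2.29%). The smallest adjusted p among them was 0.163 in the follicles and 0.877 in MII.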

How the data were processed

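The authors deposited whole-number read counts per gene, not normalized, and TPM values. The submitters' processing notes name Trim Galore 0.4.1, TopHat2, featureCounts and mm10; settings, strand and the handling of reads matching several genes are not given in the sources used here. TPM lengths matched merged GENCODE M21 exons within 1% for 92.9% of 7408 genes. No reads without a gene were in the tables.

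Groups came from the labels. The main test was edgeR 4.0.16 (R 4.3.3, quasi-likelihood, robust, TMM, filterByExpr, no replicate block). It had 12 microdissected libraries in 1 fit and 6 MII libraries in another, with a Benjamini-Hochberg adjusted p under 0.05 over all genes. It was run on simulated counts, but the check it had to pass used a dispersion far below that of the data. The common dispersion of the data was 3.595 in the microdissected and 0.5417 in the MII fit. How many true changes the test finds at that spread is not given here. Standard errors were derived from the F statistic. Alternatives were RLE, every gene with a count, a replicate block, DESeq2 1.42.0, limma 3.58.1 on log2(TPM + 1) and leaving out each library; DESeq2 without its Cook filter was added after seeing the data. Ratios used Python 3.11.15 and scipy 1.17.1. Same-numbered libraries did not deviate together (correlations -0.0793 to 0.0852), and no 2 replicates agreed within sampling noise. All 10 members were named in every comparison, and other pathway genes if called or highest by mean TPM in their list. The list of 10 names and the pathway lists were drawn up with earlier results of these data known, although no value entered the rule.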

Additional observations from a re-analysis of the deposited data

How the results depend on the processing

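Of 875 alternative values of the members' log2 fold changes over the 6 comparisons 788 kept direction and call, 82 turned, none of these past the threshold, and 5 passed it with the same direction, all with DESeq2 without its Cook filter (added after seeing the data). Under the other alternatives no member was called, but DESeq2 with that filter gave 4 members no p-value in the follicles. Those values were scored as not called, so the ones that kept direction are among the 788 without having been tested. The cause of the turns was not tested. The number of genes called in primordial follicles was 1, and 2 with RLE and 760 with DESeq2; in primary follicles it was 0, and 479 with DESeq2 and 3 with limma on log2(TPM + 1). For the mean NTY effect it was 1, and 10 with RLE, 13 with every gene with a count, 2 with the replicate block and 652 with DESeq2. DESeq2 without the Cook filter called 1213 genes in primordial and 698 in primary follicles, 1083 for the mean, 1216 for the difference, 1027 for the stage step and 29 in MII. For the difference the number called was 1, and 11 with every gene with a count and 742 with DESeq2, for the stage step 0, and 3 and 582, and for MII 0, and 29 with DESeq2. Leaving out 1 library gave 0 to 3 calls in primordial follicles, 0 to 8 for the mean, 0 to 8 for the difference and 0 to 3 for the stage step, and without primordial NTY replicate 3 the first 3 fell to 0. The numbers shared by sham and NTY do not pair libraries in the labels, and the replicate block changed no member's call.

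The replicate block turned Gpx1 to -0.12 and Gpx4 to -0.91 in MII, Gclm to 1.04 and Gpx1 to 2.15 in primordial follicles, Gss to -0.062, Gpx1 to -0.46 and Gpx4 to -0.55 in primary follicles, Gclm to -0.15 in the stage step, Gclc to -1.33 and Gclm to 0.68 in the mean, and Gclm to -0.72 and Gpx1 to -2.61 in the difference. With limma on log2(TPM + 1), Gpx1 turned to -0.13 and Gpx4 to -0.29 in MII, Gpx1 to 0.44 in primordial follicles, Gclm to -0.37, Gss to -0.23, Gpx1 to -1.11 and Gpx4 to -1.26 in primary follicles, Gpx4 to 0.52 in the stage step, Gpx1 to -0.34 and Gpx4 to -0.26 in the mean, and Gpx1 to -1.55, G6pdx to -0.36, Taldo1 to -0.16 and Tkt to -1.23 in the difference. Slc7a11 in primary follicles turned to 0.12 with RLE and 0.12 with DESeq2, with and without its Cook filter. Leaving out 1 library in MII gave -0.47 to 0.42 for Gpx1, -1.32 to 0.74 for Gpx4, -0.76 to 0.47 for G6pdx, -0.21 to 0.086 for Taldo1, and -1.95 to 0.69 for the Gpx4 to Gpx1 ratio. In primordial follicles it gave -0.25 to 9.93 for Gss, -0.67 to 2.31 for Gsr, -1.50 to 4.08 for Gpx1, -0.78 to 4.05 for Gpx4, -2.42 to 0.29 for G6pdx and -1.99 to 0.012 for Tkt. In primary follicles it gave -8.46 to 0.57 for Slc7a11, -1.12 to 2.02 for Gclm, -2.21 to 1.57 for Gss, -0.49 to 2.22 for Gpx1, -0.51 to 0.91 for Gpx4, -2.25 to 0.11 for G6pdx, -4.87 to 0.18 for Taldo1 and -3.47 to 0.34 for Tkt. In the stage step it gave -2.32 to 4.398 for Slc7a11, -0.60 to 5.20 for Gss, -0.69 to 2.83 for Gpx1, -0.67 to 1.25 for Gpx4, -0.66 to 1.09 for G6pdx and -0.83 to 1.48 for Tkt. In the mean it gave -1.34 to 2.21 for Gclc, -0.73 to 5.07 for Gss, -0.69 to 2.83 for Gpx1 and -0.26 to 2.15 for Gpx4. In the difference it gave -9.73 to 0.82 for Gss, -2.50 to 3.16 for Gpx1, -3.79 to 1.04 for Gpx4, -1.62 to 1.90 for G6pdx and -2.88 to 1.73 for Tkt.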

Other observations

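Likeness across libraries is given as a description, over points that share amplification and depth. Over the 12 microdissected libraries the member most like Slc7a11 by Spearman rho of CPM was G6pdx (0.662), and Taldo1 was also most like G6pdx (0.657). Over the 6 MII libraries Gpx1 and G6pdx had the highest rho of any members (0.886), and Slc7a11 had 0.0857 with its nearest, Gclc. Among all genes with a mean of at least 10 CPM, those most like Slc7a11 by Pearson r of log2(CPM + 1) in the 12 libraries were Rnf8 (0.971), Usp12 (0.931) and Sorcs3 (0.923). For Gpx4 they were Slc44a1 (0.941), Trim23 (0.932) and Strn3 (0.93), and for Gclm Rnf14 (0.9), Ipo9 (0.895) and Arfgef3 (0.892).

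Some pathway genes, picked out after their values were seen, were near or at 0 in follicles and present in every MII library. Cth (which makes cysteine from cystathionine) was at 0 in all 12 microdissected libraries and at 13.2 to 43.7 TPM in MII. Chac2 (a cyclotransferase that degrades glutathione) was at 0.67 TPM or less in follicles and at 27.1 to 95.9 TPM in MII. Gsto2 (an omega-class transferase) was at 0 in follicles and at 2.44 to 54.9 TPM in MII. Idh2 (the mitochondrial isocitrate dehydrogenase) went the other way, with a median of 97.1 TPM in follicles and over 3 counts in 1 of 6 MII libraries. As above, the library method changed with the stage.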
